A study of Mus musculus with 16 samples.

Results

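The transcripts described here are those of 40 ribosome biogenesis and nucleolar genes, chosen by name from 46983 genes in the count table, and all 40 were found by their mouse symbols. They fell into 8 groups by role: 4 proteins of the box C/D snoRNP and U3 core, 4 of the box H/ACA snoRNP, 5 abundant nucleolar proteins and chaperones, 6 members of the UTP-A and UTP-B subcomplexes, 6 other factors of the small subunit processome, 5 factors of later 40S assembly, 3 members of the PeBoW complex and 7 other factors of 60S assembly. RNA was sequenced from 46C mouse embryonic stem cells (ESCs), a line of strain 129Ola with GFP at the Sox1 locus, grown on gelatin in medium with LIF. All cells received an siRNA, either a non-targeting control or one against RAM, and were harvested 48 hr later. RAM, the product of Ramac, is an activating subunit of the cap methyltransferase RNMT. All cells were also held in cycloheximide for 10 min before lysis, which stops ribosomes on mRNA. Of each cytoplasmic lysate, 10% was kept as input and the rest was run on a sucrose gradient, of which fractions 17 to 22 were pooled as polysomes. This gave 4 groups of 4 libraries, named here by fraction and siRNA (control input, RAM siRNA input, control polysomes and RAM siRNA polysomes). The study describes 4 independent experiments with 1 ESC line.

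Ribosome biogenesis begins in the nucleolus, where RNA polymerase I transcribes a long precursor that holds the mature rRNAs of both subunits. Box C/D snoRNPs guide ribose methylation of the precursor, box H/ACA snoRNPs guide pseudouridylation, and the U3 snoRNP helps to form the small subunit processome, in which the small subunit rRNA is folded and cut. A separate set of factors, PeBoW among them, matures the precursor of the large subunit. These genes are highly expressed in growing cells such as ESCs, and many are known targets of Myc. In a sucrose gradient an mRNA sediments by the number of ribosomes it carries, which is limited by the length of its reading frame.

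The libraries held between 16647500 and 20147800 counts (rounded to 6 digits). Ramac, the target of the siRNA, was at 10.6, 10.1, 10.8 and 11.6 CPM (reads relative to the library total, after TMM scaling for composition) in control input and at 3.11, 2.67, 3.11 and 3.17 CPM in RAM siRNA input, and at 6.61, 6.89, 8.80 and 14.6 and 0.965, 0.287, 2.25 and 2.61 CPM in the respective polysomes. The groups did not overlap in either fraction (two-sided exact permutation test, p = 0.0286, which no split of 4 against 4 libraries can go below). The 10 naive ESC markers examined were all at 1 CPM or more in every library, and their sum, without TMM scaling, was between 5512 and 5829 CPM in control input and between 4665 and 5193 CPM in RAM siRNA input, and between 6594 and 8271 CPM and between 4654 and 8123 CPM in the respective polysomes. The sums of the fibroblast, neural progenitor, primitive endoderm and trophoblast marker lists stayed between 10.7 and 56.1 CPM in all 16 libraries, with up to 4 of the 8 neural progenitor markers at 0 in every library of a group. The part of the marker differences in the results was not tested. In polysomes, RAM siRNA replicate 2 stood apart from the other libraries, as described with the affected genes.

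All 40 genes were expressed well above the limit for testing. They had at least 1 CPM in all 16 libraries and between 368 and 66969 counts per library, and together they took 0.637% to 0.781% of the counts in input and 0.771% to 1.02% in polysomes. The lowest in input was Gar1, a protein of the H/ACA snoRNP, at 27.5, 25.7, 26.5 and 30.8 CPM in control cells. The highest was Npm1, which encodes the nucleolar chaperone nucleophosmin, at 1485, 1377, 1264 and 1643 CPM. These CPM are not divided by transcript length, so levels are compared between libraries and not between genes. Replicates of a group were close in input, with a median coefficient of variation over the 40 genes of 8.32% (control) and 9.53% (RAM siRNA), beside 7.76% and 9.40% for the 9140 genes with a mean of 10 CPM or more. Polysomes had medians of 16.98% (control) and 26.99% (RAM siRNA), beside 17.6% and 26.8%.

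**Figure D1:**
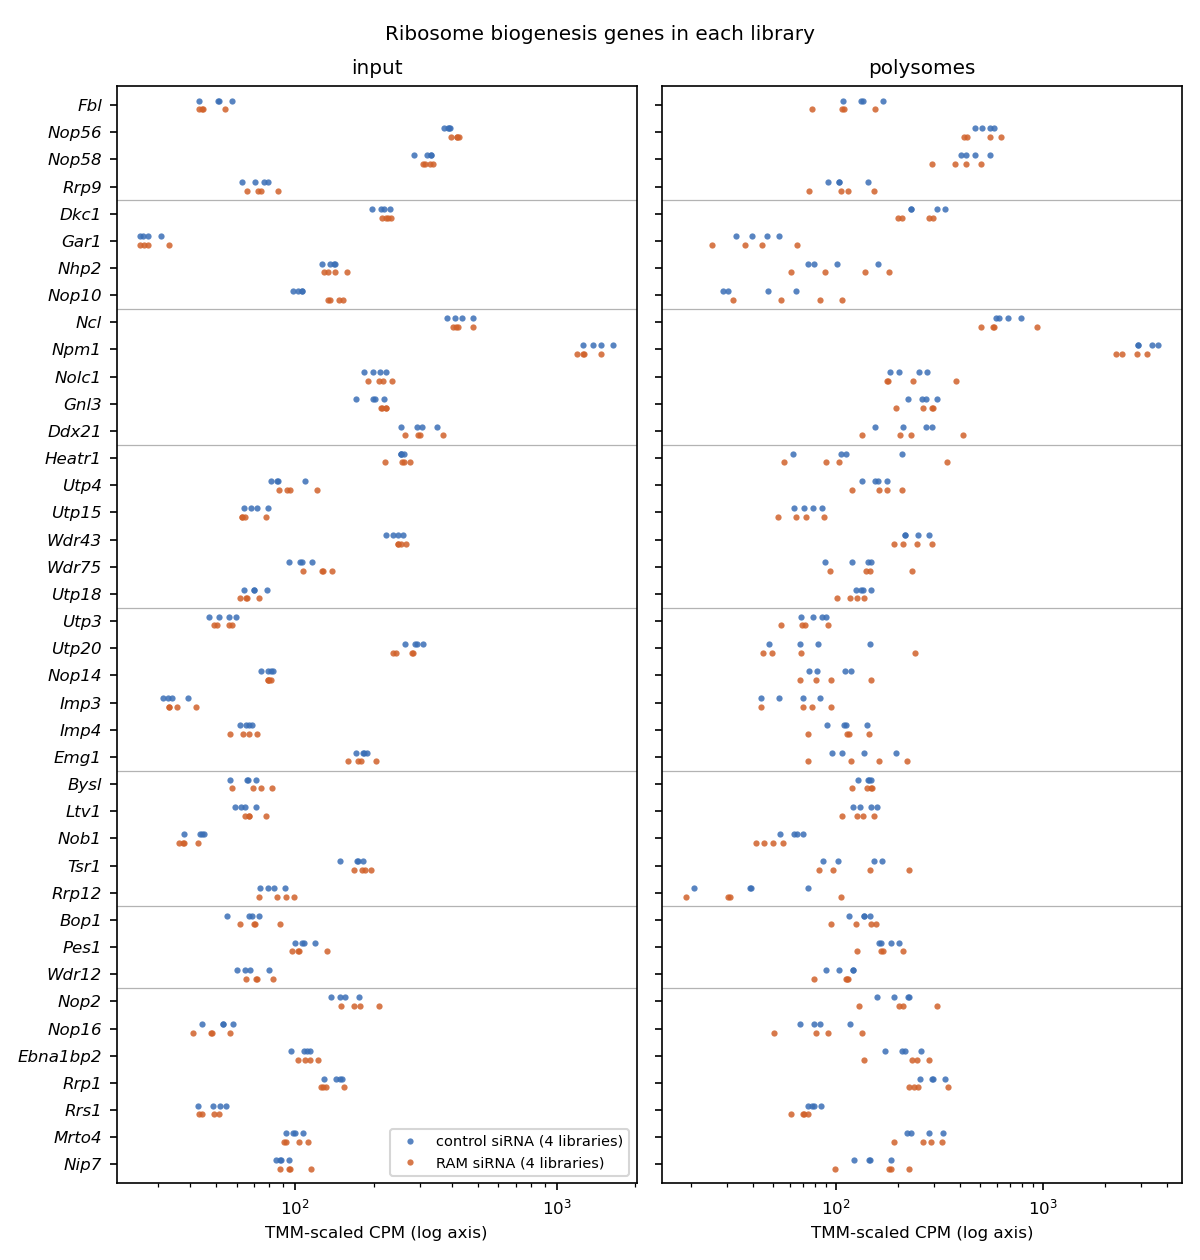
TMM-scaled CPM (log axis) of the 40 ribosome biogenesis genes in input (left) and polysomes (right), 1 point per library, with control siRNA in blue, RAM siRNA in orange and lines between the 8 roles. In input the blue and orange points overlap for all genes except Nop10 and Nop56, and in polysomes the points of a gene spread further, with the lone orange point on the far right of Utp20, Heatr1 and Rrp12 at 242.5, 345 and 106 CPM.

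It was first asked whether RAM siRNA changed the level of these transcripts in input. With a term for each replicate number, described below, 12 of the 40 genes and 39.3% of all genes were called. Without that term, Nop10 rose and none of the 40 fell, while 12.9% of the 12805 genes tested were called (6.95% higher and 5.94% lower). The median log2 change of the 40 genes was 0.037, with 27 above 0 and 13 below it, and that of all genes tested was 0.00070. At an unadjusted p under 0.05 there were 2 of the 40 genes, against 28% of all genes. The other 39 genes lay between -0.15 and 0.24 on the log2 scale, and the 95% confidence interval of each of these 39 changes lay between -0.5 and 0.5. All changes are relative to the other transcripts of a library, and fewer cells of a type and less RNA per cell cannot be told apart in bulk samples.

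Nop10 encodes the smallest protein of the box H/ACA core. It had 103, 98.3, 107 and 107 CPM in the 4 control input libraries and 148, 134, 137 and 152 CPM in the 4 RAM siRNA input libraries. All 4 RAM siRNA libraries were above all 4 control libraries. The log2 change was 0.46 (standard error 0.069, adjusted p = 0.00138), a 1.38-fold rise, and it was present in each same-numbered pair, at 0.52, 0.45, 0.36 and 0.52. The other H/ACA proteins were near 0, with log2 changes of 0.03 for Gar1, 0.044 for Nhp2 and 0.057 for Dkc1, which encodes the pseudouridine synthase dyskerin. In a single fit of all 16 libraries, which gives every gene the larger spread of the polysome libraries, Nop10 kept its log2 change of 0.46 and did not pass (adjusted p = 0.660). Nop10 lies at chr2:112261926-112263269 (GRCm38, plus strand), and its reading frame is the shortest of the 40 genes. It is shown as the sequence of the gene that changed, spliced, from the GENCODE M21 annotation, with the start and stop codon in capitals:
Nop10 reading frame: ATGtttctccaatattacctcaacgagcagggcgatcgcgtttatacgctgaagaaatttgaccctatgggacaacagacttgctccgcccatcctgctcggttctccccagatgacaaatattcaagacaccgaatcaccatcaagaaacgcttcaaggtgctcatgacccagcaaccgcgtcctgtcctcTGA

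Libraries with the same replicate number deviated together from their group means, so the comparison was also fitted with 1 term for each replicate number, a replicate block. The block called 12 of the 40 genes, 8 higher and 4 lower, and 39.3% of all genes (20.3% higher and 19% lower). The medians remained near 0, at 0.035 for the 40 genes and -0.00036 for all genes. The 8 that rose were Nop10, Wdr75, Nop2, Utp4, Gnl3, Nip7, Bop1 and Bysl, and the 4 that fell were Npm1, Utp20, Nob1 and Fbl. Except for Nop10, none of these moved by more than 0.25 on the log2 scale. The 3 factors of 60S assembly among the 12 (Nop2, Nip7 and Bop1) were higher, and the factors of 40S assembly went in both directions.

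Among genes of small subunit assembly, Wdr75, a UTP-A protein, had 107, 104, 94.8 and 117 CPM in the 4 control input libraries and 127, 128, 108 and 139 CPM in the 4 RAM siRNA input libraries. RAM siRNA libraries were higher in each pair although the ranges of the groups overlapped, and the log2 change was 0.24 (standard error 0.088, adjusted p = 0.0898) without the block and 0.24 (standard error 0.043, adjusted p = 0.000139) with it. Without RAM siRNA input replicate 3 it also passed without the block, at 0.31 (adjusted p = 0.0378). Utp4, another UTP-A protein, had 86.1, 85.3, 81.2 and 109.7 CPM in the 4 control input libraries and 93.7, 96.03, 87.0 and 122 CPM in the 4 RAM siRNA input libraries, with replicate 4 highest in both groups. Its log2 change was 0.14 (standard error 0.12, adjusted p = 0.488) without and 0.13 (standard error 0.043, adjusted p = 0.0169) with the block. Bysl, a factor of late 40S assembly, had a log2 change of 0.12 under the block (adjusted p = 0.0487).

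Of the genes that were lower with the block, Utp20, a very large scaffold of the small subunit processome, had 308, 292, 288 and 263 CPM in the 4 control input libraries and 284, 281, 243 and 237 CPM in the 4 RAM siRNA input libraries. Its log2 change was -0.14 (standard error 0.085, adjusted p = 0.305) without the block and -0.14 (standard error 0.043, adjusted p = 0.0117) with it. Nob1, the nuclease that makes the final cut of the small subunit rRNA, had 43.5, 44.2, 37.8 and 45.2 CPM in the 4 control input libraries and 36.03, 37.8, 37.4 and 42.5 CPM in the 4 RAM siRNA input libraries. The RAM siRNA library was lower in each pair, and the log2 change was -0.15 (standard error 0.079, adjusted p = 0.230) without and -0.15 (standard error 0.055, adjusted p = 0.0295) with the block. Under the block Npm1 was at -0.15 (standard error 0.044, adjusted p = 0.0112) and Fbl, the methyltransferase of box C/D snoRNPs, at -0.13 (standard error 0.051, adjusted p = 0.0443). Reads that fell on annotated pseudogene copies were 0.637% of those of Npm1 (8 copies) and 2.37% of those of Fbl (2 copies) in control input. Part of their counts may have been split with copies, and this share does not show how many reads matched both.

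Of the genes of large subunit assembly and the nucleolus, Nop2, an rRNA methyltransferase, had 149, 156, 138 and 176 CPM in the 4 control input libraries and 169, 178, 151 and 209.8 CPM in the 4 RAM siRNA input libraries, with a log2 change of 0.19 (standard error 0.10, adjusted p = 0.265) without and 0.18 (standard error 0.042, adjusted p = 0.00164) with the block. Gnl3, which encodes the nucleolar GTPase nucleostemin, abundant in stem cells, had 199, 202, 171 and 219.5 CPM in the 4 control input libraries and 213, 222, 215 and 223 CPM in the 4 RAM siRNA input libraries. The lowest of the 8 libraries was control replicate 3, and the log2 change was 0.14 (standard error 0.048, adjusted p = 0.0228) with the block. Bop1, a member of PeBoW, changed by 0.13 (standard error 0.048, adjusted p = 0.0318), and Nip7 by 0.13 (standard error 0.047, adjusted p = 0.0282). The PeBoW partners of Bop1, Pes1 and Wdr12 were not called, at -0.005 and 0.093 with the block. Nop56, a core box C/D protein, was the other gene whose groups did not overlap, at 371, 392, 385 and 388 CPM in the 4 control input libraries and 422, 418, 417 and 395 CPM in the 4 RAM siRNA input libraries, and did not pass in either fit (0.10 (standard error 0.066, adjusted p = 0.351) without and 0.10 (standard error 0.043, adjusted p = 0.0639) with the block). Non-overlapping groups were found for 2 of the 40 genes and for 18% of all genes tested.

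**Figure D2:**
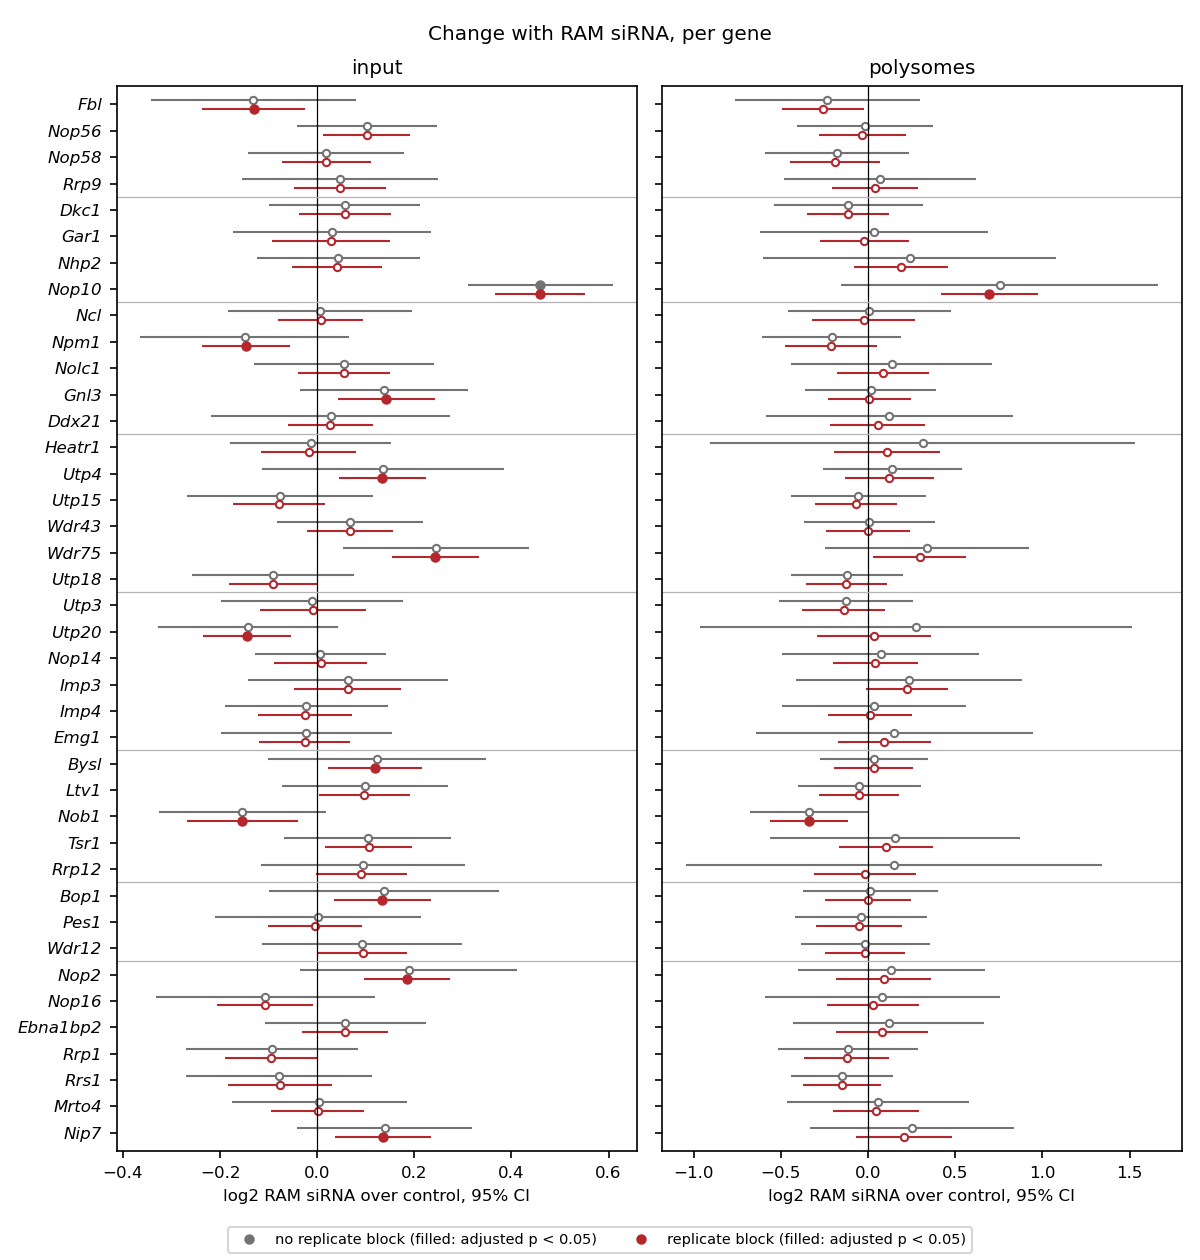
Log2 change of each of the 40 genes with RAM siRNA in input (left) and polysomes (right), with 95% confidence intervals, without (grey) and with (red) the replicate block, where filled points passed an adjusted p of 0.05. In input Nop10 stands at 0.46 and the other points between -0.15 and 0.24, and in polysomes the grey intervals reach a half-width of 1.24 (Utp20).

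In polysomes, none of the 40 genes was called between RAM siRNA and control cells, without the block, and 0.0234% of all genes were. Ramac, the target of the siRNA, did not pass here either, at -2.52 on the log2 scale (quasi-likelihood test, adjusted p = 0.128). The absence of a call in this comparison therefore does not show the absence of a change. None of the 40 had an unadjusted p under 0.05 in edgeR's quasi-likelihood test, against 9% of all genes. DESeq2, limma-voom and edgeR's likelihood ratio test also called 0 of the 40, beside 2.35%, 0.0234% and 1.56% of all genes. Their median log2 change was 0.034, against 0.056 for all genes. The spread was wide: the 95% confidence intervals had a median half-width of 0.52, and 12 of the 40 lay between -0.5 and 0.5. With the replicate block, Nop10 was higher and Nob1 lower (1 and 1 of 40 genes, against 9.68% and 4.97% of all genes, 14.6% together), and 37 of the 40 intervals lay between -0.5 and 0.5.

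Nop10 had 30.3, 28.7, 47.04 and 64.8 CPM in the 4 control polysome libraries and 54.3, 31.8, 84.6 and 107 CPM in the 4 RAM siRNA polysome libraries. It was higher with RAM siRNA in each pair, by 0.84, 0.15, 0.85 and 0.73 on the log2 scale, while the ranges of the groups overlapped since replicates 3 and 4 were above 1 and 2 in both. The log2 change was 0.75 (standard error 0.41, adjusted p = 0.662) without and 0.70 (standard error 0.13, adjusted p = 0.00232) with the block. Nob1 had 62.8, 65.04, 53.9 and 69.99 CPM in control polysomes and 49.9, 45.4, 41.5 and 55.9 CPM in RAM siRNA polysomes, and was lower in each pair, with log2 ratios of -0.33, -0.52, -0.38 and -0.32. Its log2 change was -0.34 (standard error 0.15, adjusted p = 0.554) without and -0.34 (standard error 0.11, adjusted p = 0.0430) with the block. Rrs1, which joins the 5S rRNA particle to the large subunit, was the only gene of the 40 whose groups did not overlap in polysomes (6.56% of all genes did not), at 85.3, 78.3, 73.7 and 76.7 and 69.6, 70.3, 60.8 and 73.4 CPM, with a log2 change of -0.15 (standard error 0.13, adjusted p = 0.894) without the block, which did not pass.

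The wide intervals in polysomes came with libraries that differed by replicate number. Utp20 had 82.2, 146, 47.5 and 67.03 CPM in control polysomes and 68.3, 243, 44.8 and 49.3 CPM in RAM siRNA polysomes. Heatr1, the largest UTP-A protein, had 112, 210.4, 62.5 and 107 and 105, 345, 56.5 and 90.2 CPM, and Rrp12, a long repeat protein of 40S export, had 38.8, 73.4, 20.8 and 39.3 and 30.2, 106, 18.9 and 31.1 CPM. For all 3, replicate 2 was the highest in both groups, and RAM siRNA replicate 2 was the highest of the 8 libraries. Their log2 changes with the block were 0.037, 0.11 and -0.018 (adjusted p = 0.905, 0.672 and 0.949). With both pairs numbered 2 left out, an alternative chosen after seeing the data, the block called 10 of the 40 genes (35.6% of all genes): Nop10, Nip7, Nhp2, Imp3, Emg1 and Ebna1bp2 were higher and Nop58, Nob1, Rrp12 and Utp3 lower. The 6 that were higher have reading frames of 195 to 921 bases, and the 4 that were lower of 1212 to 3888 bases. Nop10 rose by 0.86 in that fit and Nip7, a 60S factor, by 0.37, and Nop58, a core box C/D protein, fell by 0.29 on the log2 scale. Heatr1 and Utp20, with the longest reading frames, were not called in it. With all 8 libraries and no block, the Spearman correlation of the change with reading frame length was 0.12 over the 40 genes. It was -0.00098 over all 12106 protein-coding genes. Over the 35 of the 40 genes with more than 600 bases it was 0.51, a cut that was not applied to all genes. In the other genes the median change was 0.17 under 500 bases, 0.0084 from 1000 to 1999 and 0.18 from 4000 bases.

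Polysome loading, the change with RAM siRNA in polysomes beyond that in input, was called for none of the 40 genes in edgeR's quasi-likelihood test, with 0 called of 40 and 0% of all genes. None of the 40 had an unadjusted p under 0.05 (0.781% of all genes). DESeq2, limma-voom and the likelihood ratio test called 0 as well, beside 0.00783%, 0% and 0.00781% of all genes. The median was -0.045, against 0.0013 for all genes. With a term for each replicate number within each fraction, none of the 40 genes and 0.0156% of all genes were called, 38 of the 40 intervals lay between -0.5 and 0.5, and 1 of the 40 had an unadjusted p under 0.05, Nob1 at -0.24 (unadjusted p = 0.0404), against 4.97% of all genes. Of the 40 genes 31 were below 0 with these terms and 23 without them, and the median with them was -0.081, against -0.021 for all genes. Without these terms and with 1 library left out at a time, the median of the 40 genes lay between -0.19 and 0.074. Input and polysome libraries come from the same cultures, and the loading comparison uses the same 16 libraries as the comparisons within each fraction. Nob1 stood at -0.15 in input and -0.34 in polysomes, and Nop10 at 0.46 and 0.75.

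The 40 genes were next compared between polysomes and input of control cells, which asks how far their mRNAs lay in the polysome fractions relative to other mRNAs. In control cells 26 of the 40 genes were higher in polysomes and 4 lower, and 10 did not pass, whereas 33.1% of all genes were higher and 34.3% lower (67.4% together). The median log2 ratio of the 40 genes was 0.57, against -0.00079 for all genes tested, and it stayed between 0.48 and 0.71 under all alternatives run. In 27 of the 40 genes polysomes were above input in all 4 same-numbered pairs, as in 38.3% of all genes, and in 6 (Nop10, Ddx21, Heatr1, Utp20, Tsr1 and Rrp12) they were below it in all 4, as in 36.8% of all genes. With the replicate block 27 were higher and 8 lower (35.1% and 37.2% of all genes, 72.3% together), since Dkc1 joined the higher genes, at 0.31 (adjusted p = 0.0338), and Nhp2, Ddx21, Emg1 and Tsr1 the lower, at -0.51, -0.44, -0.53 and -0.49 (adjusted p = 0.0417, 0.0244, 0.0249 and 0.0120). RNA of input and of polysomes was purified with different reagents, so the fraction and the purification cannot be told apart, and a ratio of 0 means the average of the transcripts, not equal amounts of RNA.

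All 4 genes of the box C/D and U3 core were higher in polysomes. Fbl had 51.4, 51.04, 43.1 and 57.7 CPM in control input and 132, 109, 136 and 169.9 CPM in control polysomes, and the polysome libraries lay far above the input libraries, with a log2 ratio of 1.40 (standard error 0.15, adjusted p = 1.36e-05). Rrp9, the U3-specific protein, had 70.4, 76.2, 62.8 and 78.7 CPM in control input and 104, 92.4, 104 and 144 CPM in control polysomes, a ratio of 0.59 (standard error 0.15, adjusted p = 0.00498). Nop58 and its paralog Nop56 were less far up. Nop58 had 332, 319, 286 and 333 CPM in control input and 558, 474, 403 and 427 CPM in control polysomes, a ratio of 0.51 (standard error 0.13, adjusted p = 0.00381), and Nop56 had 371, 392, 385 and 388 CPM in control input and 585, 560.3, 513 and 473 CPM in control polysomes, a ratio of 0.44 (standard error 0.11, adjusted p = 0.00463). Both genes, and Gnl3 and Ncl below, host small RNAs in their introns that are annotated on the same strand.

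The 4 genes of the box H/ACA core did not move together. Nop10 had 103, 98.3, 107 and 107 CPM in control input and 30.3, 28.7, 47.04 and 64.8 CPM in control polysomes, so that each polysome library was below each input library, with a ratio of -1.31 (standard error 0.23, adjusted p = 0.000436). Gar1 had 27.5, 25.7, 26.5 and 30.8 CPM in control input and 39.6, 33.2, 46.9 and 53.4 CPM in control polysomes, a ratio of 0.62 (standard error 0.15, adjusted p = 0.00395). Nhp2, with a reading frame of 462 bases, had 142, 136, 127 and 141 CPM in control input and 78.6, 73.5, 101 and 160.4 CPM in control polysomes. It was below input in control replicates 1 to 3 and above it in replicate 4, and did not pass, at -0.43 (standard error 0.22, adjusted p = 0.103), but did without control polysome replicate 4, at -0.74 (adjusted p = 0.000556). Dkc1 was at 0.32 (standard error 0.14, adjusted p = 0.0625), and passed without control polysome replicate 3 (0.42, adjusted p = 0.0293) or replicate 4 (0.39, adjusted p = 0.0220).

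Of the abundant nucleolar proteins, Npm1 had 1485, 1377, 1264 and 1643 CPM in control input and 3626, 2896, 2901 and 3396 CPM in control polysomes, a ratio of 1.12 (standard error 0.14, adjusted p = 3.95e-05). Ncl, which encodes nucleolin, had 434, 410.3, 383 and 479 CPM in control input and 790.0, 684, 593 and 614 CPM in control polysomes, a ratio of 0.61 (standard error 0.13, adjusted p = 0.00138). For both, all 4 polysome libraries were above all 4 input libraries. Gnl3 had 199, 202, 171 and 219.5 CPM in control input and 311, 261, 224 and 272 CPM in control polysomes, a ratio of 0.39 (standard error 0.13, adjusted p = 0.0180), which did not pass without control input replicate 3 (0.33, adjusted p = 0.0587) or control polysome replicate 1 (0.33, adjusted p = 0.0599). The RNA helicase gene Ddx21 was at -0.41 (standard error 0.19, adjusted p = 0.0738), below input in all 4 pairs, and passed without control polysome replicate 2 (-0.51, adjusted p = 0.0249). Nolc1, a chaperone of snoRNPs, was at 0.12 (standard error 0.14, adjusted p = 0.472).

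Among the UTP-A and UTP-B genes, Utp18 and Utp4 were higher in polysomes and Heatr1 lower. Utp18 had 70.01, 70.0, 64.2 and 78.3 CPM in control input and 148, 133, 125 and 136 CPM in control polysomes, a ratio of 0.91 (standard error 0.11, adjusted p = 2.53e-05), and its 4 pairs were between 0.79 and 1.08. Utp4 had 86.1, 85.3, 81.2 and 109.7 CPM in control input and 178, 154, 135 and 161 CPM in control polysomes, a ratio of 0.76 (standard error 0.13, adjusted p = 0.000366). Heatr1, with a reading frame of 6432 bases, had 261, 254, 255 and 254 CPM in control input and 112, 210.4, 62.5 and 107 CPM in control polysomes, a ratio of -1.09 (standard error 0.28, adjusted p = 0.00493). Replicate 2 was the polysome library closest to input. Utp15, Wdr43 and Wdr75 were not called, at 0.036, -0.038 and 0.21. The 6 subunits lay between -1.09 and 0.91.

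The other small subunit processome factors also split. Utp20, with the longest reading frame of the 40 genes at 8370 bases, had 308, 292, 288 and 263 CPM in control input and 82.2, 146, 47.5 and 67.03 CPM in control polysomes, a ratio of -1.78 (standard error 0.28, adjusted p = 0.000168), the lowest of the 40. The U3-associated proteins Imp3 and Imp4 were higher. Imp3 had 31.4, 32.9, 34.1 and 39.1 CPM in control input and 53.3, 43.6, 69.8 and 84.1 CPM in control polysomes, a ratio of 0.84 (standard error 0.19, adjusted p = 0.00227), and Imp4 had 65.1, 66.8, 61.7 and 68.7 CPM in control input and 109.9, 90.8, 112 and 141 CPM in control polysomes, a ratio of 0.76 (standard error 0.14, adjusted p = 0.000548). Utp3 had 56.2, 51.3, 46.99 and 59.8 CPM in control input and 90.04, 86.01, 68.4 and 78.01 CPM in control polysomes, a ratio of 0.55 (standard error 0.12, adjusted p = 0.00195). For Imp3, Imp4 and Utp3 each polysome library was above each input library. Nop14 was not called, at 0.24, nor was Emg1, a pseudouridine methyltransferase, at -0.47 (standard error 0.20, adjusted p = 0.0569). Emg1 passed without control polysome replicate 4, at -0.72 (adjusted p = 0.000825).

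In later 40S assembly, Bysl had 65.7, 66.2, 56.5 and 71.1 CPM in control input and 144, 143, 128 and 149 CPM in control polysomes, a ratio of 1.09 (standard error 0.11, adjusted p = 9.98e-06), the smallest p of the 40. Ltv1, which is removed as the 40S subunit matures, had 64.6, 62.6, 59.1 and 71.1 CPM in control input and 159, 131, 122 and 149 CPM in control polysomes, a ratio of 1.09 (standard error 0.12, adjusted p = 1.32e-05). Nob1 had 43.5, 44.2, 37.8 and 45.2 CPM in control input and 62.8, 65.04, 53.9 and 69.99 CPM in control polysomes, a ratio of 0.53 (standard error 0.12, adjusted p = 0.00207). These 3 had polysome values above all input values. Rrp12, with a reading frame of 3888 bases, had 83.3, 79.3, 73.5 and 91.5 CPM in control input and 38.8, 73.4, 20.8 and 39.3 CPM in control polysomes, a ratio of -0.96 (standard error 0.29, adjusted p = 0.0114). The GTPase-like protein Tsr1 was at -0.45 (standard error 0.19, adjusted p = 0.0565) and below input in all 4 pairs, and passed without control polysome replicate 1 (-0.59, adjusted p = 0.0209) or replicate 2 (-0.53, adjusted p = 0.0304).

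All 3 PeBoW genes, whose proteins form one complex in the processing of the large subunit precursor, were higher in polysomes. Bop1 had 66.9, 68.7, 55.2 and 72.8 CPM in control input and 147, 137, 116 and 137 CPM in control polysomes, a ratio of 0.99 (standard error 0.12, adjusted p = 3.39e-05). Pes1 had 109, 106, 101 and 119.7 CPM in control input and 202, 186, 162 and 165 CPM in control polysomes, a ratio of 0.68 (standard error 0.11, adjusted p = 0.000280), and Wdr12 had 67.7, 64.6, 60.5 and 79.8 CPM in control input and 121, 104, 89.8 and 122 CPM in control polysomes, a ratio of 0.65 (standard error 0.13, adjusted p = 0.00126). In each of the 3 genes the polysome libraries were above all input libraries.

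The 7 other 60S factors were all higher in polysomes. Mrto4, which holds the place of a stalk protein on the large subunit precursor, had 92.7, 100.1, 107 and 98.7 CPM in control input and 232, 222, 330.5 and 284 CPM in control polysomes, a ratio of 1.39 (standard error 0.15, adjusted p = 1.07e-05). Rrp1 had 144, 149, 129.7 and 152 CPM in control input and 293, 339.7, 296 and 257 CPM in control polysomes, a ratio of 1.01 (standard error 0.12, adjusted p = 2.57e-05), and Ebna1bp2 had 111, 109, 97.2 and 115 CPM in control input and 218, 174, 210.1 and 260.2 CPM in control polysomes, a ratio of 0.97 (standard error 0.14, adjusted p = 8.60e-05). Each polysome library of these genes was above each input library. Nip7 had 85.2, 88.6, 88.1 and 95.2 CPM in control input and 145, 123, 146 and 186 CPM in control polysomes, a ratio of 0.72 (standard error 0.14, adjusted p = 0.000721). Nop16 had 53.03, 53.1, 44.1 and 58.3 CPM in control input and 79.2, 67.7, 84.4 and 117 CPM in control polysomes, a ratio of 0.71 (standard error 0.17, adjusted p = 0.00325), and Rrs1 had 48.9, 54.7, 42.6 and 52.1 CPM in control input and 85.3, 78.3, 73.7 and 76.7 CPM in control polysomes, a ratio of 0.63 (standard error 0.11, adjusted p = 0.000420). Nop2 was the least certain of the 7. It had 149, 156, 138 and 176 CPM in control input and 228, 224, 158 and 191 CPM in control polysomes, a ratio of 0.34 (standard error 0.14, adjusted p = 0.0492), and without any 1 of 5 of the 8 libraries (control input replicates 1, 2 and 3 and control polysome replicates 1 and 2) it did not pass, with an adjusted p of up to 0.131.

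The 9 genes below 0 in control cells were Nop10, Nhp2 and Emg1, with reading frames of 195, 462 and 735 bases, and Wdr43, Tsr1, Ddx21, Rrp12, Heatr1 and Utp20, of 2034 to 8370 bases. Nop10 and Nhp2 have the shortest of the 40 reading frames and Rrp12, Heatr1 and Utp20 the longest, while genes of nearly the same length as the other 4 lay above 0, such as Mrto4 (717 bases) at 1.39 and Bop1 (2199 bases) at 0.99. For the other protein-coding genes tested, the median log2 ratio was -0.60 for reading frames under 500 bases, 0.36 from 500 to 999, 0.26 from 1000 to 1999, -0.15 from 2000 to 3999 and -0.79 from 4000 bases. The ribosome biogenesis genes had medians of -0.87 (2 genes), 0.80 (10 genes), 0.59 (15 genes), 0.21 (11 genes) and -1.44 (2 genes) in the same classes. From 500 to 3999 bases, 31 of 36 were above the median of the other genes of their class. The Spearman correlation of the ratio with coding length was -0.41 over the 40 genes and -0.17 over all 12106 genes, points that share the same libraries. Over the 35 of the 40 genes with more than 600 bases it was -0.61, a cut that was not applied to all genes.

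**Figure D3:**
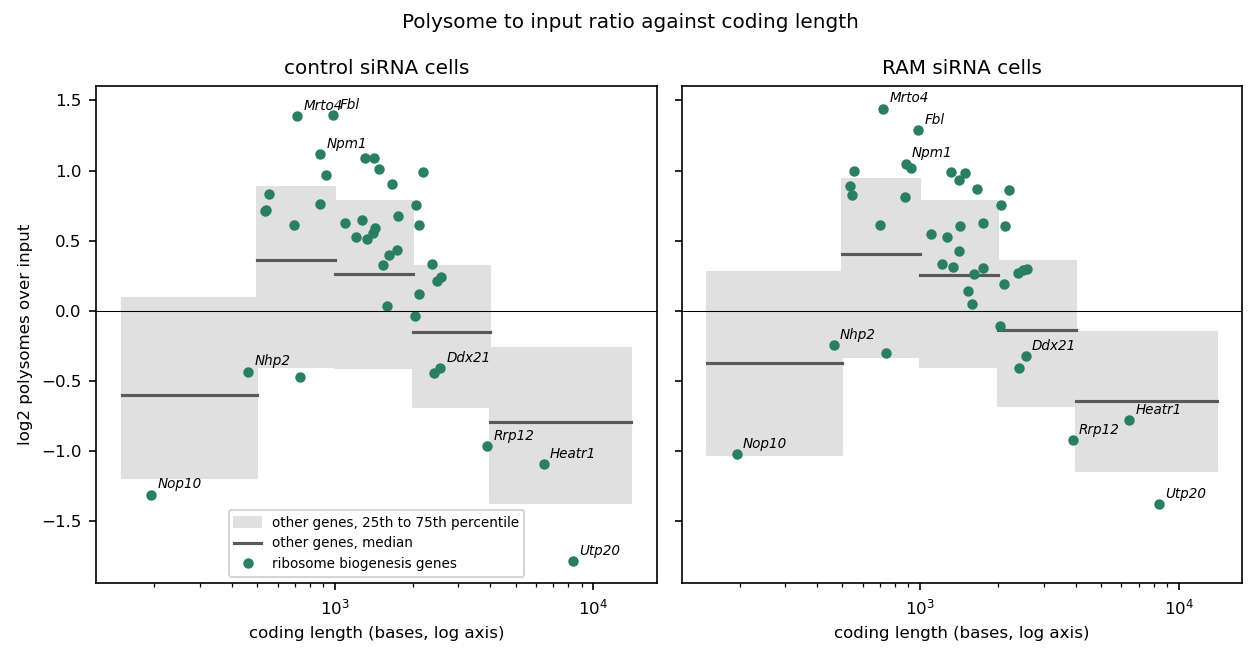
Log2 ratio of polysomes to input against coding length (log axis) in control (left) and RAM siRNA cells (right), with the 40 genes as points and, for other protein-coding genes in 5 length classes, the median (line) and the range from the 25th to the 75th percentile (grey). Points between 500 and 3999 bases mostly lie above the line of their class, and Nop10 (195 bases) and Utp20 (8370 bases) lie at the bottom left and right.

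In RAM siRNA cells the polysome to input ratio had the same pattern with fewer calls. Of the 40 genes 19 were higher in polysomes and 2 lower (Nop10 and Utp20), against 27.3% and 25.9% of all genes (53.3% together), with a median of 0.48 against 0.042. The 19 were 73.1% of the 26 that were higher in control cells and the 2 were 50% of the 4 that were lower, and all 21 were among those called in control cells. Mrto4 was again among the furthest up, at 1.44 (standard error 0.21, adjusted p = 0.000358), followed by Fbl at 1.29 (standard error 0.22, adjusted p = 0.000821) and Npm1 at 1.05 (standard error 0.19, adjusted p = 0.00135). All 3 PeBoW genes and 6 of the 7 other 60S factors were higher. The difference between the 2 kinds of cells is the loading comparison, which called none of the 40. With the replicate block 20 were higher and 4 lower (28.8% and 29.9% of all genes, 58.8% together): Utp3 joined the higher genes, at 0.41 (adjusted p = 0.0442), and Heatr1 and Rrp12 the lower, at -1.13 and -1.25 (adjusted p = 0.0273 and 0.0178). The medians of the 40 genes in the 4 pairs were 0.65, 0.52, 0.56 and 0.42 with the control siRNA and 0.48, 0.50, 0.21 and 0.35 with RAM siRNA.

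RAM siRNA polysome replicate 2 stood apart for the long genes. The log2 ratios of Utp20 in the 4 pairs were -1.91, -0.995, -2.60 and -1.97 in control cells and -2.05, -0.21, -2.44 and -2.27 in RAM siRNA cells. Those of Heatr1 were -1.22, -0.27, -2.03 and -1.25 and -1.40, 0.41, -1.97 and -1.51, and those of Rrp12 -1.10, -0.11, -1.83 and -1.22 and -1.62, 0.31, -1.95 and -1.68. In each case pair 2 was the highest of its group, and for Heatr1 and Rrp12 pair 2 of RAM siRNA was the only one of the 8 above 0. Without that 1 library, Heatr1 was at -1.60 (adjusted p = 2.12e-05) and Rrp12 at -1.71 (adjusted p = 7.32e-06), and 27 of the 40 genes were called, 6 of them lower, beside 67.04% of all genes. The short genes went the other way: Nop10 had -1.77, -1.78, -1.18 and -0.72 in control cells and -1.45, -2.08, -0.69 and -0.51 in RAM siRNA cells, with the lowest value in pair 2 of both. Over all genes, the median ratio of reading frames of 4000 bases or more minus that of 1000 to 1999 bases was -0.11 in RAM siRNA pair 2, -0.50 in control pair 2 and between -1.49 and -0.97 in the other 6 pairs.

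**Figure D4:**
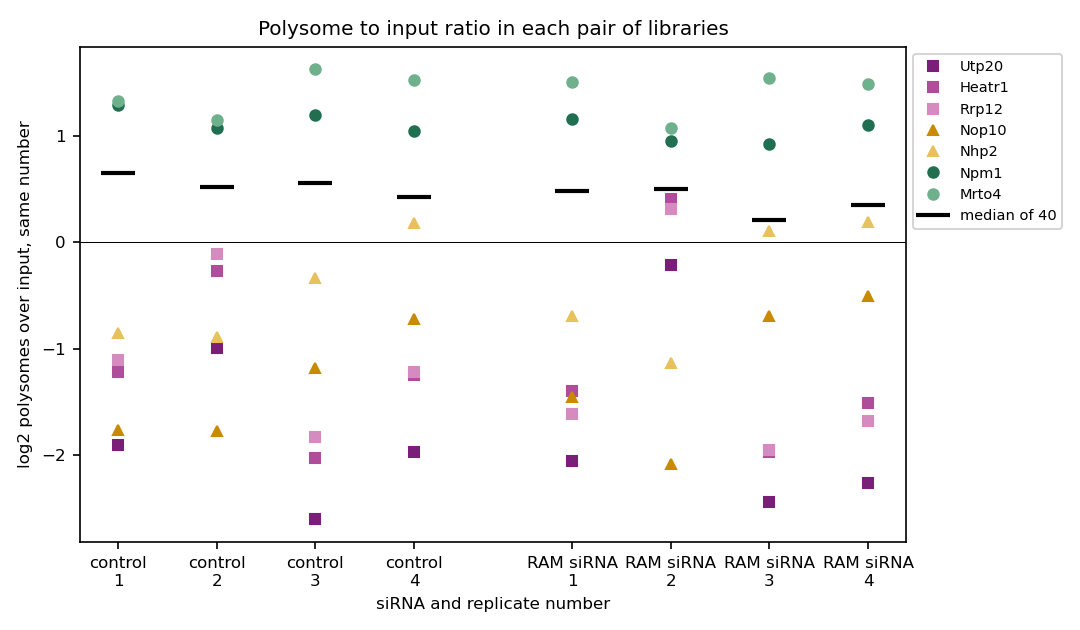
Log2 ratio of polysomes to input in each of the 8 same-numbered pairs for the long genes Utp20, Heatr1 and Rrp12 (squares), the short genes Nop10 and Nhp2 (triangles) and Npm1 and Mrto4 (circles), with the median of the 40 genes as a bar. In pair 2 of RAM siRNA the squares rise to -0.21, 0.41 and 0.31 while Nop10 drops to -2.08, and the bar stays between 0.21 and 0.65 in all pairs.

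In RAM siRNA cells 8 of the 21 calls were lost when 1 library or another was left out. The lower ratio of Utp20 passed with all 8 libraries and without polysome replicate 2 (-2.27, adjusted p = 7.03e-07), and without any other single library it did not (adjusted p up to 0.0872). Rrp9 passed with all 8 libraries and without polysome replicate 2, and without any other single library it had an adjusted p of up to 0.111. Nop10 did not pass without input replicate 1, input replicate 4 or polysome replicate 1 (adjusted p up to 0.0674). Ncl and Wdr12 lost their calls without input replicate 1, 2 or 3 or polysome replicate 1 (adjusted p up to 0.0912 and 0.0666), and Pes1 without input replicate 1, 2 or 3 (up to 0.0553). Nop16 and Nip7 lost theirs without input replicate 3, at adjusted p = 0.0565 and 0.0526. Utp3 gained one without polysome replicate 3, at 0.51 (adjusted p = 0.0286). The other 13 of the 21 genes passed whichever library was left out.

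The other genes of ribosome biogenesis were then examined, from 3 lists of 99 genes of which 97 were found and tested. In input, 1 of the 40 other small subunit processome and 40S factors was called, Pno1, a 40S assembly factor, which was higher by 0.41 (standard error 0.097, adjusted p = 0.0157). Of the 50 other 60S factors 1 was higher and 1 lower, the 60S factor Cebpz at 0.44 (standard error 0.089, adjusted p = 0.00815) and Nifk, a nucleolar partner of the proliferation marker Ki-67, at -0.45 (standard error 0.093, adjusted p = 0.00810). The medians of these lists were -0.0061 and 0.041, and 12.9% of all genes were called in input (6.95% higher and 5.94% lower). Of the 7 genes of rRNA transcription, 2 subunits of the promoter selectivity factor were higher and 1 lower: Taf1c at 0.36 (adjusted p = 0.0105), Taf1d at 0.31 (adjusted p = 0.0196) and Taf1b at -0.58 (adjusted p = 0.000547). Ubtf, the polymerase I activator, was at -0.11 (adjusted p = 0.414) and Rrn3 at -0.089 (adjusted p = 0.445). With the replicate block 5 higher and 5 lower were called in the first list and 9 and 9 in the second, which is 25% and 36% of the lists beside 39.3% of all genes. In polysomes none of the 97 was called by edgeR's quasi-likelihood test without the block, beside 0.0234% of all genes. In each list 1 gene had an unadjusted p under 0.05, against 9% of all genes. With the block 1 higher and 1 lower were called in polysomes in the first list, 2 and 1 in the second and 0 and 1 among the genes of rRNA transcription, beside 14.6% of all genes. Between polysomes and input of control cells, 25 of 40 and 30 of 50 were higher and 2 and 11 lower, with medians of 0.61 and 0.40, beside 26 and 4 of the 40 genes described here, whose median was 0.57. Of all genes 33.1% were higher and 34.3% lower.

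Since many of these genes are known targets of Myc, their promoters were searched for the E-box CACGTG that Myc binds, which reads the same on both strands. Myc itself was at 16.7, 16.5, 12.5 and 19.2 CPM in control input and 19.4, 17.98, 14.9 and 16.8 CPM in RAM siRNA input, and the groups overlapped (exact permutation test, two-sided p = 0.543). RefSeq promoter windows (GRCm38.p6, 250 bases before to 50 after the start) were matched for 35 of the 40 genes. The box was in 9 of the 35 (25.7%), in 8.09% of 27025 genes with a window and in 20.3% of 79 other ribosome biogenesis genes. The 27025 genes were taken whether or not they were expressed here, and the share among expressed genes was not computed. The median log2 change in input was 0.067 for the 9 genes with the box and 0.037 for the 26 without it, and the ranges overlapped. The 30 bases around each box are shown 5' to 3', with the box in capitals:
Imp4: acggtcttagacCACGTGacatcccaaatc
Ltv1: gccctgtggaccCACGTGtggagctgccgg
Nop2: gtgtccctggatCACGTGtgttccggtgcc
Pes1: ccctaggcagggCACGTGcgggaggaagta
Tsr1: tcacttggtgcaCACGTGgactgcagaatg
Utp18: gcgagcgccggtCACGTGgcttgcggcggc
Utp20: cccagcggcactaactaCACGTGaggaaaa
Utp4: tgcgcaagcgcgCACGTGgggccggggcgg
Wdr43: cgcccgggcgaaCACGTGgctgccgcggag
They lie at chr1:34439696-34439725 (Imp4, plus strand), chr10:13193092-13193121 (Ltv1, minus strand), chr6:125131811-125131840 (Nop2, plus strand), chr11:3963965-3963994 (Pes1, plus strand), chr11:74898092-74898121 (Tsr1, plus strand), chr11:93885769-93885798 (Utp18, minus strand), chr10:88826765-88826794 (Utp20, minus strand), chr8:106893643-106893672 (Utp4, plus strand) and chr17:71616220-71616249 (Wdr43, plus strand). In Utp20, Ltv1, Tsr1, Utp4, Wdr43 and Pes1 the box follows the annotated start, and in Imp4, Nop2 and Utp18 it precedes it. A match describes these letters and does not show binding.

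The 3 prime UTRs were also searched for ACTATC and TGCTCA, words that an earlier examination of these data had brought up. Both were in 3 of the 40 genes (Nop10, Nop58 and Imp4, 7.5%) and in 9.96% of 12060 protein-coding genes tested. One or both words were in 16 of the 40 genes, and ACTATC was in 15% of the 40 and 16.04% of all, and TGCTCA in 32.5% and 39.3%. An annotated pseudogene copy was found for Nop10 too, and its reads were 0% of those of Nop10 in control input. The same value would be given if the copy was not in the count table.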

How the data were processed

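Raw read counts per gene were deposited by the authors for 16 libraries (TruSeq stranded total RNA, rRNA depleted). The submitters' processing notes name bcl2fastq, STAR 2.5.1b, HTSeq and edgeR and the build mm10. The annotation release and the strand setting of the counting are not given in the sources used here. No column of another sample was present (0).

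Counts were analysed in R 4.3.3 with edgeR 4.0.16: genes reaching 1 CPM in 10 or more of the 16 libraries were kept (12805), libraries were scaled by TMM, and groups were compared by the quasi-likelihood test with Benjamini-Hochberg adjustment over all genes tested (called at an adjusted p under 0.05). Input and polysomes were fitted separately for the effect of RAM siRNA, polysomes against input were fitted within each siRNA, and loading was the interaction over all libraries. Log2 ratios of a gene in single pairs used no pseudocount. A pseudocount of 0.5 CPM was used for the deviations from group means and for the medians of length classes in single pairs. The quasi-likelihood fits of input and of loading, without the replicate block, were also run on simulated counts with known changes. The other fits and tests were not. The simulated libraries all had the spread of the input libraries around the block fit and no replicate effect. They therefore do not show what the fits can find in these data, least of all in polysomes.

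The study describes 4 independent experiments, and same-numbered libraries deviated together from their group means (r between 0.400 and 0.797 in input, 0.625 and 0.944 in polysomes, 0.237 and 0.571 in control cells and 0.297 and 0.711 in RAM siRNA cells, over the 9140 genes whose mean reached 10 CPM). The numbers were therefore taken to pair the libraries, and the fit with the number as a factor is given where it changes a call.

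The 40 genes, the wider lists and the tests were chosen with earlier results of these data known. Values in every library were given for genes that passed without the block in input or in polysomes against input of control cells, and for some other genes. Of the other lists, the genes called in input without the block, and Ubtf and Rrn3, were given by their log2 change. Of 99 listed other genes 97 were found. Alternatives were DESeq2 1.42.0, limma-voom (limma 3.58.1), the likelihood ratio test, other scalings, filters and thresholds, and omitted libraries. Reading frames, UTRs and pseudogenes came from GENCODE M21 (copies by blastn 2.17.0+, at least 90% identity over 150 bases) and promoters from RefSeq. Intervals cover the spread between these libraries.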

Additional observations from a re-analysis of the deposited data

Results flagged for a closer look

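In 8 of 160 groups of 4 libraries, 1 library lay far from the other 3 relative to the range of its group (Dixon's test at the 95% level). Chance gives 1 in 20 for independent groups. The genes share the same 16 libraries, so the groups are not independent and the count cannot be set against chance. In RAM siRNA polysomes, replicate 2 was the highest for the 3 longest reading frames of the 40 genes: Heatr1 was at 345 CPM (next highest 104.5), Utp20 at 243 CPM (next 68.3) and Rrp12 at 106 CPM (next 31.1). Replicate 3 of the same group was the lowest for Wdr12, at 79.0 CPM (next lowest 112). In RAM siRNA input, replicate 4 was the highest for Fbl at 54.0 CPM (next 44.5), for Utp15 at 77.9 CPM (next 64.6) and for Pes1 at 133 CPM (next 104). In control input, replicate 1 was the highest for Heatr1, at 261 CPM (next 255).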

How the results depend on the processing

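In input, 1 of the 40 genes was called without the replicate block (12.9% of all genes tested), 12 with it (4 lower and 8 higher, beside 39.3% of all genes) and 5 with it when both pairs numbered 2 were left out (31.4% of all genes), an alternative chosen after seeing the data. The count was 0 in a fit of all 16 libraries (1.45% of all genes), 0 without pairs 1 and 2 (0% of all genes), 5 without pairs 3 and 4 (20.5% of all genes), and 0 without the genes with a UTR word or those with a pseudogene or overlap, both of which remove Nop10. In polysomes the count was 0 (0.0234% of all genes), 2 with the block (14.6%) and 10 with the block and without pair 2 (35.6%). In polysomes against input of RAM siRNA cells 21 genes were called (53.3% of all genes), and 13 at an adjusted p under 0.01 (36.8% of all genes). Leaving out 1 library at a time gave 1 to 2 in input (7.13% to 19.6% of all genes), 0 to 0 in polysomes and loading, 28 to 33 in polysomes against input of control cells (61.5% to 69.5% of all genes) and 14 to 27 in RAM siRNA cells (43.7% to 67.04% of all genes). The cause of these differences was not tested, except that smaller sets of genes or libraries enter some of them. No result changed direction past the threshold. Of all other recomputed counts 120 stayed within 1.5 times the reported count.

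Polysome libraries differed more between replicates than input libraries, and the intervals without the block were wider there. Counts are relative to the total of a library, so a change of all transcripts together is not seen.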
